A study of Drosophila melanogaster with 3 samples.

Results

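The regions described here are 2057 weak Mam-GFP peaks whose summits lay in protein-coding sequence, called weak coding peaks below. They were taken from the dm6 list of 24073 peaks made on the pooled replicates, which by its deposited name holds peaks and background. A peak was weak when it was missing from the list of 5326 peaks that passed the irreproducible discovery rate (IDR) procedure, called reproducible peaks, and 18747 peaks were weak. A weak coding peak had its summit inside an annotated coding exon, outside 5′ UTRs and more than 500 bp from every transcription start site (TSS) of a protein-coding gene. The members were thus selected on pooled rank and location. The 2057 peaks made up 10.97% of the weak peaks, with an exact binomial 95% interval of 10.5 to 11.4%. Only 9 of the 5326 reproducible peaks met the same location rule, which was 0.169% (exact binomial 95% interval 0.0773 to 0.320%).

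The peaks came from chromatin immunoprecipitation and sequencing (ChIP-seq) of whole Drosophila melanogaster embryos of both sexes, pooled and collected over 0 to 24 hours after laying. All samples were of the mam-MiMIC-GFP line, in which an eGFP exon placed in an intron of mam gives a Mam-GFP fusion protein, and the precipitation used an antibody against GFP. The samples formed 1 group of 3 biological replicates with no second genotype or treatment, so the design held no contrast between conditions. A possible control is named in the labels and was not analysed here. Embryos of all stages and tissues were mixed, so a site bound in few cells and a site bound weakly in many cells cannot be told apart.

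Mastermind (Mam) is a nuclear coactivator without sequence-specific DNA binding of its own. When Notch is cleaved at the membrane, its intracellular part enters the nucleus and joins a transcription factor of the CSL family, Suppressor of Hairless or Su(H), and Mam completes this complex and recruits histone acetyltransferases. In the fly embryo the pathway is known for choosing between neural and epidermal fates and for activating the Enhancer of split genes. Coding exons are not the usual place of regulatory sites, although some coding exons in animals also hold enhancer sequence.

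The sequences at the summits of 8 of the strongest weak coding peaks show what kind of base lay under these calls. They are given on the coding strand, 27 bases each, with the codon that held the summit in capitals.
hth (chr3R:10605276-10605302, minus strand, codon 32): cacgccggtcacCGGccgcccggactg
SPARC (chr3R:26869663-26869689, minus strand, codon 206): gagcactacatgCAGatggagctggag
raskol (chrX:17739274-17739300, plus strand, codon 5): atgttgcaagccGCTagcagcacaaca
CG10962 (chrX:8973321-8973347, minus strand, codon 207): gttccggacgaaACGaaggccaagctg
Usp1 (chr3R:29230756-29230782, plus strand, codon 145): cctgtccaggcgCCCtctcccacgccc
Lmpt (chr3L:16896451-16896477, plus strand, codon 10): gatctggaccgtCACgcagagtgccca
hid (chr3L:18184946-18184972, minus strand, codon 55): gcctcctcggccTCAtcttcgtcctcc
Atg13 (chr3R:8351562-8351588, plus strand, codon 481): agcgccatggacGATctgtcccggcaa

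A recurring element of the class was the trinucleotide repeat CAG CAG CAG, which is described with its counts further down. It stands in capitals in these 29-base stretches from 4 of the stronger peaks that held it, on the strand given. In fend this strand is opposite to the gene, so the coding strand there holds the reverse complement.
CG9775 (chr3R:4639367-4639395, minus strand): tcgtcagcgaCAGCAGCAGcaagccccac
fend (chrX:9134034-9134062, plus strand): gctgttgggtCAGCAGCAGctcctggact
eEF1gamma (chr3R:29221158-29221186, plus strand): cgccaagcccCAGCAGCAGgctcagcagc
hry (chr3L:8678139-8678167, plus strand): gcagcggccgCAGCAGCAGcacaacagca

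The Su(H) binding site is the motif through which Mam is known to reach DNA. Of its core, only the form GTGGGAA and the shorter TGGGAA within it were counted. GTGGGAA was present near few summits of the class. From 4 of the strongest of these occurrences, 27-base stretches are given here with the core in capitals. The strand is that of the core, which in enc is opposite to the gene.
raskol (chrX:17739300-17739326, plus strand): aacagcaccaGTGGGAAatacagcaga
enc (chr3L:3839176-3839202, minus strand): cagctgggcaGTGGGAAtgtgcgagcg
ome (chr3L:14744764-14744790, plus strand): atggtcaccgGTGGGAAatgcccttgt
lark (chr3L:7340326-7340352, plus strand): gaaaatcttcGTGGGAAatctaacgga

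The weak coding peaks were low in the pooled list, as their choice required in part. Signal, the authors' peak height, ranged from 35.0 to 108 with a median of 42.5 and quartiles of 38.2 and 49.1. The weak peaks at promoters (within 500 bp of a TSS) had a median signal of 54.4, those in introns 47.5 and those between genes 46.0. Of the weak coding peaks, 86.0% ranked below the middle of the whole pooled list, and the best rank was 5461. The authors' −log10 q-value reached 1 (a q-value of 0.1 or less) in 82 weak coding peaks, or 3.99%, against 22.7% of all weak peaks. These values belong to the list that chose the members and carry no test.

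The limits of the class were close to its edge members. The strongest weak coding peak, in hth, had a signal of 108, and the lowest reproducible peak of any location had 110, while the lowest reproducible coding peak, in skd, had 114.6. The member closest to a TSS was in Hip14, at 503 bp, with a signal of 57.6. A weak peak in the coding sequence of Spt3 lay at 500 bp, had a signal of 43.6 and was left out, as 1 of 543 weak coding summits within the TSS limit.

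Coding summits became more frequent down the ranked lists. Split into deciles by signal, the pooled list held 0.166% coding summits in decile 1, the strongest, 0.665% in decile 3, 8.39% in decile 5 and 16.4% in decile 10. Bases that could satisfy the location rule, called eligible coding bases, made up 13.9% of the 6 chromosome arms, or 18.6 of 134 Mb. The pooled list was therefore below that share in its strongest 6 deciles and in decile 8, and above it in deciles 7, 9 and 10.

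The same step was measured in each replicate list. These lists entered the pool and the IDR procedure, so the step partly repeats the selection of the members. Of the reproducible peaks, 99.8% overlapped a peak among the 5326 strongest of a replicate list. Each list was divided at rank 5326 into strong and weak peaks, and the location rule was applied to the summits. The list of replicate 1 held exactly 30000 peaks, and whether it was cut at that number is not stated, so its weak share and its deciles may not match those of the other lists. Among weak summits 13.6%, 10.5% and 13.7% were coding in replicates 1, 2 and 3, or 3346 of 24674, 1989 of 18941 and 2604 of 18980. Among strong summits the shares were 0.282%, 0.169% and 0.244%, from 15, 9 and 13 summits. The difference was 12.4 percentage points ± 1.76 (SD, n = 3) and had the same sign in 3 of 3 replicates. The exact two-sided sign-flip permutation p was 0.25, the smallest that 3 replicates allow. The weakest decile of the replicate lists held 17.0% ± 1.45 coding summits, against 0.182% ± 0.0589 in the strongest decile (SD, n = 3).

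**Figure D1:**
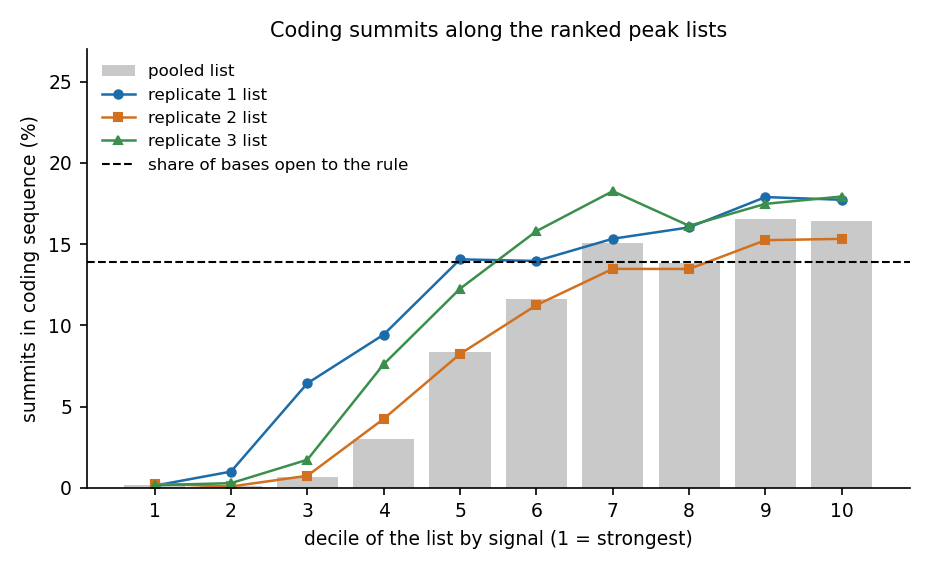
Share of summits in coding sequence (vertical axis, %) in each decile of the pooled list (bars) and of the 3 replicate lists (lines), from the strongest decile at the left to the weakest at the right. The dashed line is the 13.9% of bases that could satisfy the location rule. All 3 replicate lists start under 0.25% and end between 15.3% and 17.9%.

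The 10 strongest weak coding peaks were in hth, SPARC, raskol, CG10962, Usp1, Lmpt, hid, Atg13, Isha and CG9663. All 10 were overlapped by a peak in each of the 3 replicate lists, at ranks that differed widely between the replicates. The peak in hth, which encodes the homeodomain cofactor Homothorax that brings Extradenticle into the nucleus, lay in coding exon 2 of 14. It overlapped peaks ranked 3982, 10280 and 7741 in replicates 1, 2 and 3. The nearest reproducible summit was 7492 bp away.

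SPARC encodes a calcium-binding glycoprotein of basement membranes. Its peak lay in the last of 2 coding exons and overlapped peaks ranked 4872, 21268 and 4335. The ranks in replicates 1 and 3, but not that in replicate 2, were among the 5326 strongest of their lists. A similar pattern held in Atg13, which encodes a subunit of the kinase complex that starts autophagy, with ranks of 4582, 23230 and 6919. In Isha the ranks were 7684, 23868 and 4732. Replicate 2 thus placed the peaks of SPARC, Atg13 and Isha near the end of its list of 24267 peaks.

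Other strong members had closer ranks. The peak in raskol, which encodes a Ras GTPase-activating protein, had its summit at codon 5 and ranks of 7350, 7441 and 5486. CG10962 had ranks of 7704, 6122 and 5026. The peak in hid, which encodes a protein that promotes apoptosis by blocking the caspase inhibitor Diap1, lay in the first of 4 coding exons and had ranks of 7635, 9662 and 4374. It was 970 bp from a reproducible summit.

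**Figure D2:**
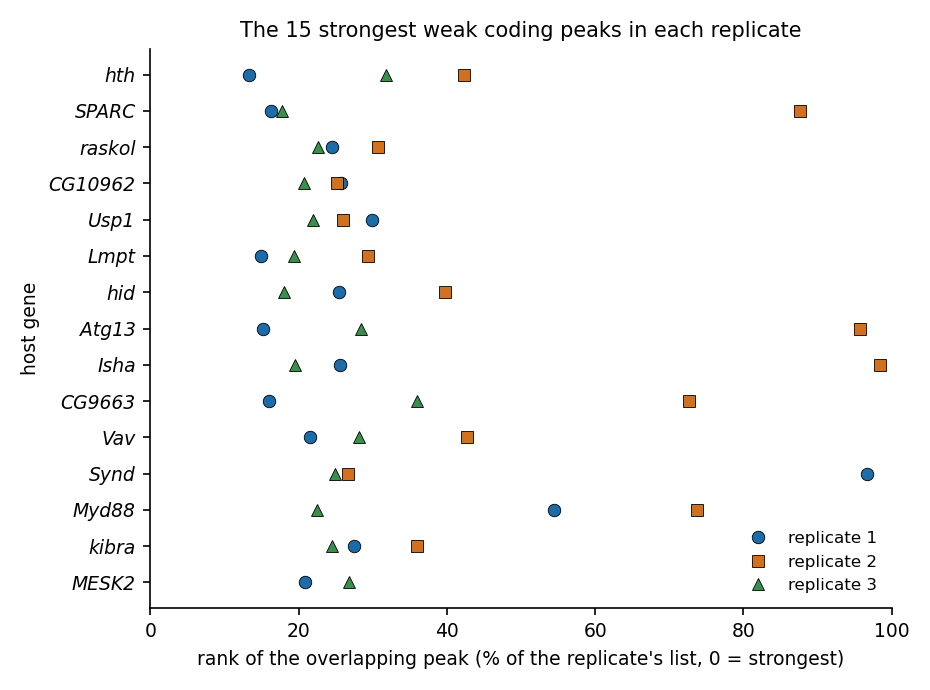
Rank of the peak that overlapped each of the 15 strongest weak coding peaks in each replicate list, as a percentage of the length of that list (horizontal axis, 0 is the strongest peak), with host genes listed from the strongest pooled signal at the top. The list lengths were 30000, 24267 and 24306 peaks, and the peak in MESK2 had no overlapping peak in replicate 2. The replicate 2 markers of SPARC, Atg13 and Isha are far to the right of those of replicates 1 and 3.

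The 9 reproducible coding peaks give the other end of the same location. The strongest was in otp, which encodes the homeodomain factor Orthopedia, with a signal of 982 and ranks of 123, 113 and 170 in the replicate lists. The next were in l(3)mbn with a signal of 347, CG10357 with 266, klar with 259 and CG31259 with 178. The last 4, in scrib, InR, Snx27 and skd, had signals from 124 down to 114.6. Signals of scrib, InR, Snx27 and skd were thus near the highest of the weak class, and the InR peak was at rank 14802 in replicate 2. The G+C content around the 9 summits averaged 50.3%.

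Support by the replicates was lower for weak coding peaks than for the other weak peaks. An overlapping peak of at least 1 bp was found for 68.6%, 43.1% and 57.3% of weak coding peaks in replicates 1, 2 and 3. The other 16690 weak peaks were overlapped in 77.4%, 66.5% and 67.8%. The mean difference was −14.2 percentage points ± 7.95 (SD, n = 3), with the same sign in 3 of 3 replicates (exact two-sided sign-flip permutation p = 0.25, the smallest possible). The pooled list contains the reads of these replicates, so overlap is partly built in for both groups.

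All 3 replicate lists overlapped 294 weak coding peaks, or 14.3%, against 36.1% of all weak peaks. Another 901 were overlapped in 2 lists, 792 in 1 list and 70 in none. A stricter measure, a replicate summit within 100 bp in all 3 lists, was met by 143 weak coding peaks in 141 genes, or 6.95%, against 18.2% of all weak peaks. A peak among the 5326 strongest of any replicate was overlapped by 17 weak coding peaks, or 0.826%, against 13.0% of all weak peaks.

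Part of this gap moved with signal. When both groups were compared within quintiles of the weak coding peaks' signal, the mean difference was −5.51 percentage points ± 7.27 (SD, n = 3; exact two-sided sign-flip permutation p = 0.25). In the weakest quintile 41.3% ± 13.6 of weak coding peaks were overlapped, against 44.7% ± 7.83 of other weak peaks. In the strongest quintile the values were 79.1% ± 12.7 and 88.5% ± 2.90. The quintile limits came from the weak coding peaks alone. The strongest quintile, from a signal of 51.0 upward, held 412 weak coding peaks and 7527 other weak peaks. Signal was not matched within quintiles, so the remaining difference is not fully adjusted for signal. In replicate 2 weak coding peaks had lower support in all 5 quintiles, for example 64.8% against 86.0% in the strongest quintile. In replicate 1 they had slightly higher support in quintiles 1, 3 and 4, for example 55.6% against 53.6% in the weakest quintile, and in replicate 3 in quintiles 2 and 3, at 47.7% against 44.9% and 54.7% against 52.7%. Averaged over quintiles, the difference was −1.74, −13.9 and −0.895 percentage points in replicates 1, 2 and 3, so its size came mostly from replicate 2.

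**Figure D3:**
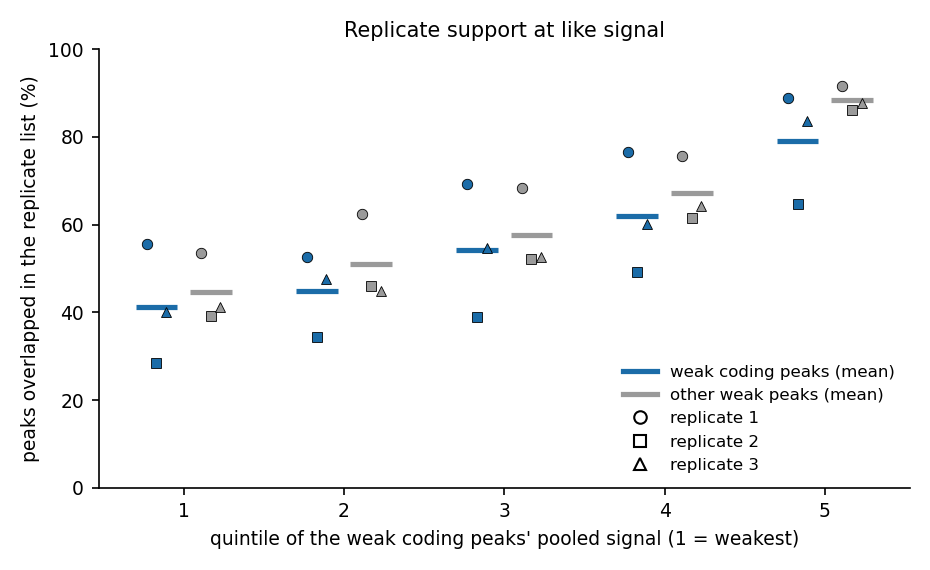
Share of weak coding peaks (blue, left of each pair) and of other weak peaks (grey, right) that were overlapped by a peak of each replicate list (vertical axis, %), in quintiles of the pooled signal of the weak coding peaks. Symbols are the 3 replicates and horizontal bars their means. Signal was not matched within quintiles, and the strongest quintile had no upper limit. The squares of replicate 2 are lower for weak coding peaks in every quintile, while the replicate 1 circles nearly coincide in quintiles 1, 3 and 4.

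Replicate lists were also compared directly with each other, without the pooled list. Weak coding summits had a lower share of overlap there than weak intron, intergenic and promoter summits. Here a weak summit of one replicate was counted when it lay inside a peak of another, which is stricter than the overlap of peaks used above. Over the 6 ordered pairs of lists, this held for 22.1% of weak coding summits, with a range of 15.5 to 28.3%. The means were 39.9% for weak intron summits, 37.3% for weak intergenic summits and 52.4% for weak promoter summits. The lowest pair of those 3 classes, 33.8%, was above the highest pair of the coding class. The replicate peaks covered 3.83 to 6.65% of eligible coding bases and 6.53 to 8.39% of all bases. Weak coding summits lay inside them at 4.04 to 4.54 times the share of eligible coding bases. Such a background was not computed for the other classes and rank was not matched, so the shares do not compare reproducibility between classes. Pairs share lists and are not independent, so these are descriptions.

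The sequence around weak coding summits was rich in G and C. In the 201 bp centred on the summit, G+C content averaged 56.5% (SD 7.27 over 2057 windows), against 51.8% for all eligible coding bases and 41.0% for other weak peaks. In the replicate lists, the weak coding summits had a mean G+C of 54.8%, 55.4% and 55.95%. The other weak summits had 41.3%, 40.9% and 41.5%. The difference was 14.2 percentage points ± 0.603 (SD, n = 3), in the same direction in 3 of 3 replicates (exact two-sided sign-flip permutation p = 0.25, the smallest possible). Eligible coding bases averaged 51.8%, against 42.8% for promoter, 40.2% for intron and 40.6% for intergenic bases. The sign of the difference was thus largely set by the location classes, so the test cannot show a trait of the peaks themselves.

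Most of that difference is a property of coding sequence, which is richer in G+C than the rest of the fly genome, so each location class was also set beside its own sequence. Weak coding summits exceeded eligible coding bases by 4.68 percentage points in the pooled list and by 3.55 on average in the replicate lists, and each replicate's mean was above 51.8%. Weak promoter summits differed from promoter bases by −0.352, weak intron summits from intron bases by −0.0797 and weak intergenic summits from intergenic bases by −0.159 percentage points. UTRs showed a displacement in the direction of the coding class, with weak 3′ UTR summits at 4.22 and weak 5′ UTR summits at 1.76 percentage points above the bases of their classes. Reproducible summits in 3′ UTRs, 37 in number, were 2.06 percentage points above. Reproducible summits in the promoter, intron, intergenic and 5′ UTR classes had less G+C than their classes, by −5.01, −4.20, −3.64 and −3.09 percentage points.

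The weak coding peaks were concentrated at the upper end of the G+C range. The decile of eligible coding windows with the highest G+C, from 60.7 to 79.1%, held 650 weak coding peaks, or 31.6%, against 10.01% of eligible bases. The same decile held 22.4%, 25.8% and 27.3% of the weak coding summits of the 3 replicates. Density was 348 weak coding peaks per Mb in that decile, against 50.2 per Mb in the decile with the lowest G+C. The peaks of hth, at 68.2% G+C, and hid, at 69.7%, were in the top decile, while those of raskol, at 49.8%, and Lmpt, at 48.8%, were not. Peaks supported by all 3 replicates had a mean G+C of 58.1%, those supported by 2 had 56.6%, those supported by 1 had 55.9% and those supported by none 56.4%.

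**Figure D4:**
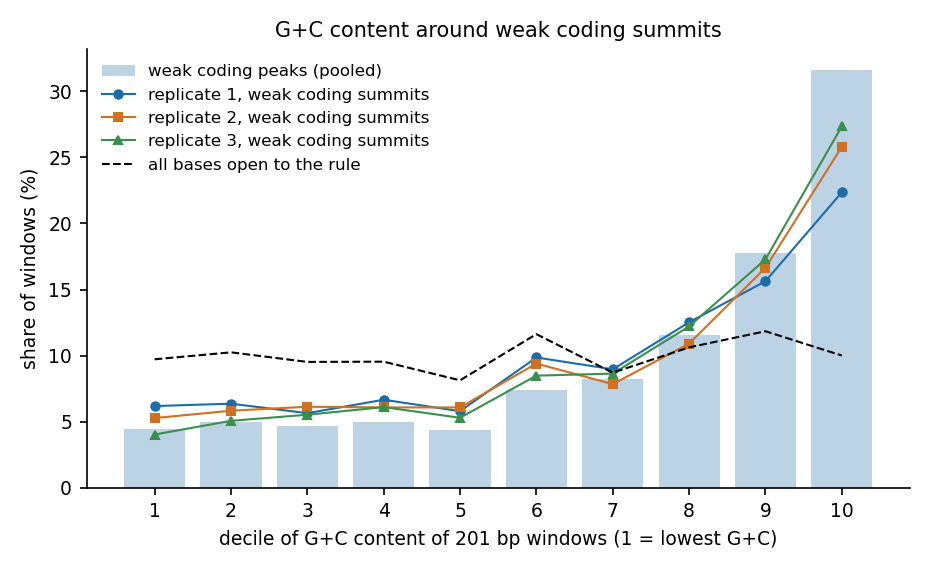
Share of windows (vertical axis, %) in each decile of G+C content of 201 bp coding windows (horizontal axis, lowest G+C at the left) for the weak coding peaks (bars), for weak coding summits of each replicate list (lines with symbols) and for all eligible coding bases (dashed line). The bars climb to 31.6% in the highest decile and the replicate lines to between 22.4% and 27.3%, where the dashed line is at 10.01%.

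The X chromosome held fewer weak coding peaks per base than the autosomal arms. Density was 78.9 per Mb of eligible coding bases on X (261 peaks), against 110 on 2L, 116 on 2R, 127 on 3L and 116 on 3R. The small chromosome 4 held 27 peaks, at 106 per Mb, but its density in the replicate lists ranged from 90.3 per Mb in replicate 2 to 302 per Mb in replicate 1. The ratio of X to the 4 large autosomal arms was 0.672 in the pooled list. For weak coding summits of the replicate lists it was 0.799, 0.655 and 0.702, a mean of 0.719 ± 0.0738 (SD, n = 3).

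The location classes differed in this ratio. Over the replicate lists it was 0.956 ± 0.0540 for weak intron summits and 1.07 ± 0.0255 for weak promoter summits, and none of the 3 replicates' intron or promoter ratios was as low as any coding ratio. Weak intergenic summits had 0.771 ± 0.0189, within the range of the coding values (SD, n = 3 each). For reproducible peaks of the pooled list the ratio was 1.39 in introns, 1.06 at promoters and 1.00 between genes. Males have a single X, and in embryos of both sexes fewer copies of X and lower enrichment on X cannot be told apart. Why the ratio differed between classes was not tested. Eligible coding bases on X had more G+C than autosomal ones, 54.1% against 51.6%. Within deciles of G+C, a comparison added after the data were seen, the ratio was under 1 in 9 of 10 deciles and ranged from 0.364 to 1.05.

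**Figure D5:**
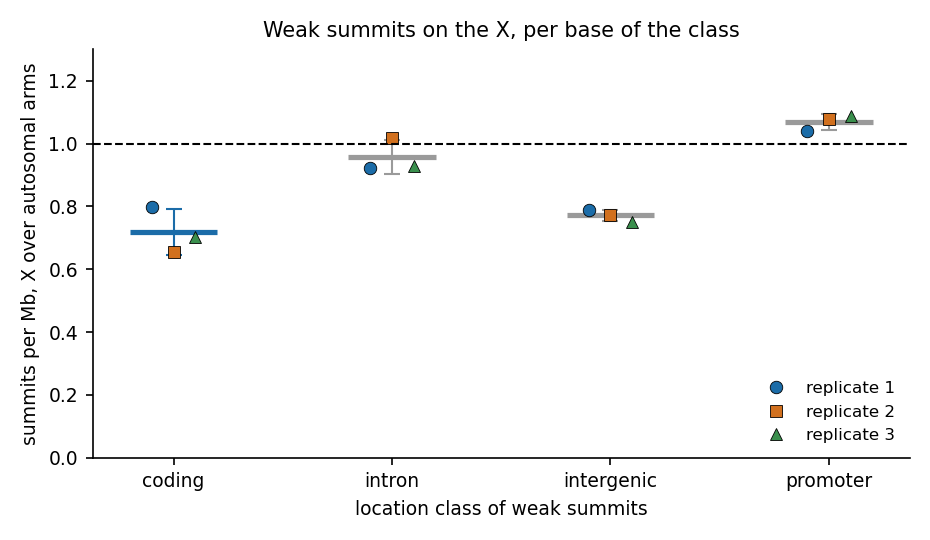
Density of weak summits on X divided by that on the 4 large autosomal arms (vertical axis, per base of the class) for 4 location classes, with the coding class in blue at the left. Symbols are the 3 replicate lists, wide bars their means and error bars the SD, and the dashed line marks equal density. The 3 coding values lie between 0.655 and 0.799, below every intron and promoter value.

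Within genes, the weak coding peaks were more frequent per base in first and last coding exons than in internal ones. A first coding exon held 308 of them, or 14.97%, against 9.15% of eligible coding bases. Last coding exons held 658, or 32.0% against 25.5%, and internal exons 908, or 44.1% against 57.0%. The remaining 183 lay in genes with a single coding exon. By position along the coding sequence, 10.1% were in its first decile, where 5.00% of eligible bases lay, and 12.3% were in its last decile, where 11.1% lay. The nearest TSS was at a median of 1458 bp from weak coding summits and 1972 bp from eligible coding bases. In 1851 cases, or 90.0%, the summit base was coding in every transcript of the host gene that spanned it.

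All 2057 peaks were 396 bp wide with the summit at the midpoint, so the summit is known no better than this width allows. The median peak was coding over 93.4% of its length, and 906 peaks, or 44.04%, were coding throughout. The median distance from the summit to the nearer exon edge was 170 bp, and that of eligible coding bases was 169 bp. Of the 2057 peaks, 101 overlapped another weak coding peak and shared reads with it, which left 2006 separate blocks.

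By median distance, weak coding peaks were nearer to reproducible peaks than coding sequence in general. The median distance from the summit to the nearest reproducible summit was 4340 bp, against 6868 bp for eligible coding bases. For other weak peaks the median was 4348 bp at promoters, 6353 bp in introns and 10627 bp between genes. A reproducible summit was found within 1000 bp of 9.48% of weak coding peaks and of 4.72% of eligible bases. Within 500 bp the direction was the opposite, with 0.146% of weak coding peaks and 0.316% of eligible bases. It lay over 20000 bp away from 9.97% of weak coding peaks and from 19.6% of eligible bases. The distance was shortest for the strongest members: the median was 3303 bp in the strongest quintile and 4967 bp in the weakest quintile.

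The host genes were often genes with a reproducible peak at a promoter. The 2057 peaks lay in 1777 of the 12343 genes with eligible coding bases, or 14.4%. Of these 1777 genes, 828 had a reproducible summit at most 1000 bp from a TSS, or 46.6%, against 31.5% of all 12343 genes and 28.9% of those without a weak coding peak. Hosts were longer, with a median of 1655 eligible bases against 1018 in all genes. The host share with a promoter peak was the higher in each of 5 groups of genes by eligible length, for example 41.2% of hosts against 21.4% of other genes in the shortest group and 55.2% against 38.4% in the longest.

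Most hosts held a single peak, and 229 held 2 or more. Xrp1, which encodes a bZIP stress-response factor, held 5 peaks in 1906 eligible bases, and gukh held 5 in 6357. The 5 peaks of Xrp1 had signals between 37.0 and 57.6. Replicate 1 overlapped all 5, replicate 3 overlapped 3 and replicate 2 overlapped none, and neighbouring peaks shared some of these overlaps. Another 10 genes held 4 each, among them raskol, lola and crp. The 3 peaks of stg, which encodes the Cdc25 phosphatase String that triggers embryonic mitoses, lay in 1381 eligible bases, and the gene's nearest reproducible summit to a TSS was 18984 bp away.

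The gene mam itself held no weak coding peak in its 4822 eligible bases. Among 27 Notch pathway components with eligible coding sequence, 6 hosted a peak, against 14.4% of all genes, and their density was 0.0771 peaks per kb against 0.110 per kb over all genes. Su(H), the DNA-binding partner of Mam, had a peak in its first coding exon with a signal of 60.8 that replicates 1 and 2 overlapped, at ranks 12402 and 15262, and replicate 3 did not. The others were in fng, which encodes a glycosyltransferase that modifies Notch, with a signal of 49.0, CtBP, a corepressor, with 45.9, numb, an inhibitor of Notch, with 43.0, Cdk8 with 42.7 and nej, which encodes the acetyltransferase CBP, with 37.2. The peaks of fng, CtBP, numb, Cdk8 and nej were each overlapped in a single replicate.

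Of 20 Notch target genes with eligible bases, 4 hosted a peak, at 0.214 per kb. Of all genes, 14.4% were hosts, at 0.110 per kb. The peak in dpn, which encodes a neural stem cell repressor, had a signal of 55.0, and those in aos, E(spl)m7-HLH and ct had 43.8, 43.7 and 35.8. The E(spl)m7-HLH peak lay in a gene with 1 coding exon, 1062 bp from a reproducible summit, and was overlapped in all 3 replicates, at ranks 12476, 14864 and 21783. Those of dpn and aos were overlapped in replicates 1 and 3, and that of ct in replicate 3. The Notch lists held 6 and 4 peaks, and no test of their densities was made.

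Cytosolic ribosomal protein genes had the highest density of the 24 gene lists when all eligible bases were counted. Of 79 with eligible bases 16 hosted 17 peaks, at 0.622 per kb. Of all genes, 14.4% were hosts, at 0.110 per kb. RpL19 had a peak with a signal of 73.3 in its last coding exon, RpL8 had 2 overlapping peaks with up to 59.7 and RpS27 had 1 with 55.5. The median distance of the 17 peaks to a reproducible summit was 965 bp, and these genes are short. Over 1000 bp from a reproducible summit, a comparison added after the data were seen, the list held 7 peaks at 0.431 per kb, against 0.105 per kb over all genes, and was no longer the highest, with glycolysis genes at 0.432 per kb. Many ribosomal protein genes have retrogene copies or pseudogenes, and how reads mapping to several places were treated is not stated in the labels or the files.

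Lists of glycolysis, translation, cytoskeleton, ion pump and heat shock genes lay above the 0.110 per kb over all genes, some of them by little. The share of hosts among all genes was 14.4%. Apart from the translation factor list, with 12 peaks, each held 5 peaks or fewer, and no test was made. The 12 glycolysis genes included 5 hosts at 0.374 per kb, with signals of 69.8 in Hex-A, a hexokinase, 62.2 in Ald1, an aldolase, and 50.4 in Pgi. The 51 translation factor genes included 10 hosts at 0.193 per kb, led by eEF1gamma with 69.0 and eIF4A with 63.1. Actin and tubulin genes had 4 hosts of 14 at 0.251 per kb, among them alphaTub84B with 45.2 and Act5C with 38.1. Ion pump and V-ATPase genes had 5 hosts of 31 at 0.129 per kb, led by Vha13 with 81.2. Heat shock genes had 5 of 24 at 0.152 per kb, with 43.8 in Hsp68 and 39.9 in Hsp83. Over 1000 bp from a reproducible summit, the ion pump list was at 0.108 per kb and the heat shock list at 0.164 per kb, against 0.105 per kb over all genes. Some actin, tubulin and heat shock genes have relatives of closely similar sequence, so peaks in such genes are uncertain in the same way.

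Regulators of embryonic patterning were also hosts, where 14.4% of all genes were hosts and the density over all genes was 0.110 per kb. Hox genes and their cofactors had 4 hosts of 10 at 0.332 per kb, which were hth with a signal of 108, pb with 44.6, exd with 40.2 and Ubx with up to 39.6. Segmentation regulators had 7 of 24 at 0.265 per kb, led by hry, the repressor Hairy, with 68.9, btd with 56.5 and oc with 47.5. Mesoderm and muscle regulators had 7 of 22 at 0.206 per kb, with 56.3 in Mef2, 55.1 in H15 and 54.4 in srp. Neural regulators had 7 of 29 at 0.169 per kb, led by lola with 78.2, grh with 55.6 and dpn with 55.0. Each of these lists held 10 peaks or fewer. The mean G+C around their peaks was 58.2 to 63.7%, against 56.5% for all weak coding peaks. Density rose with G+C, and the base composition of these lists was not compared with that of all genes, so a preference for patterning genes was not tested.

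Genes of other signalling pathways lay on both sides of the density of all genes, which was 0.110 per kb. Of all genes, 14.4% were hosts. The values were 0.127 per kb for EGFR pathway genes (5 hosts of 21, led by grk with a signal of 54.7), 0.0884 for Wnt pathway genes (4 of 21, led by sgg with 54.4) and 0.156 for BMP pathway genes (5 of 17, led by tkv with 51.6). Hedgehog pathway genes had 1 host of 12, cos, with 39.8. Polycomb and Trithorax group genes had 6 of 22 at 0.0878 per kb, led by osa with 45.1. Each of these lists held 8 peaks or fewer.

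Lists of genes of differentiated tissues lay on both sides of the 0.110 per kb over all genes, the cuticle list being above it. The share of hosts among all genes was 14.4%. Muscle structural genes had 11 hosts of 18, but their coding sequence is long and the density was 0.0768 per kb. The highest signals were 75.2 in Msp300, a giant spectrin-repeat protein, 68.0 in Tm1, a tropomyosin, and 60.6 in Mhc, the muscle myosin heavy chain. Extracellular matrix genes had 5 of 16 at 0.0325 per kb, led by SPARC with 105. Cuticle protein genes had 4 hosts of 92 with 6 peaks at 0.140 per kb, among them Cpr64Aa with 61.6, Cpr51A with 51.7 and Cpr67B, which held 3. The 3 peaks of Cpr67B overlapped in a chain and shared replicate peaks, such as the one at rank 8211 in replicate 2. The density of the cuticle list thus counted this place 3 times and rests largely on it.

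Some lists were nearly free of weak coding peaks, where 14.4% of all genes were hosts. Odorant and gustatory receptor genes, which work in sensory neurons, had 1 host of 116, Gr28b, at 0.0115 per kb over 87.3 kb, and the G+C around that summit was 39.3%. Cadherin and protocadherin genes had no peak in 114 kb of 16 genes. Yolk, vitelline and chorion genes had none in 17.3 kb of 18 genes, but at 0.110 per kb over all genes so short a length would hold few peaks. The histone list had few hosts but was not low in density. Of 31 histone genes 1 was a host, His2Av, a single-copy variant, with 2 peaks of up to 55.2. These gave 0.185 per kb over 10.8 kb, against 0.110 per kb over all genes. The replication-dependent histone genes are repeated many times, so their lack of peaks cannot be read.

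Sequence motifs were counted in the 201 bp around each summit and around every eligible coding base, on both strands. The Su(H) core GTGGGAA was near 32 weak coding summits, or 1.56%, against 2.10% of eligible bases, and near 2.15% ± 0.391 of weak coding summits in the replicate lists (SD, n = 3). The shorter TGGGAA, which includes every GTGGGAA, was near 7.24% against 9.45%. Other forms of the Su(H) site were not counted, so these shares do not measure all Su(H) sites. The DRE motif TATCGATA, found at promoters of widely expressed fly genes, was near none of the 2057 summits, against 0.174% of eligible bases and 5.82% of reproducible summits. The shorter CGATA, part of every DRE match, was near 19.4% of weak coding summits, against 22.8% of eligible bases and 34.5% of reproducible summits. The GATA motif TGATAAG was near 0.972% against 1.64% of eligible bases.

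Some motifs that contain CAG were more frequent. CAGCAGCAG was near 171 weak coding summits, or 8.31%, against 4.97% of eligible bases and 1.74% of other weak summits, and the share in the replicate lists was 7.65% ± 0.574 (SD, n = 3). The E-box CAGCTG was near 18.4% against 14.4% of eligible bases, with 17.6% ± 0.831 in the replicate lists. The remaining motifs differed less: GAGAGAG was near 1.12% against 1.06%, CAGGTAG near 2.38% against 1.91%, GCCATTTT near 1.07% against 0.892% and GGTCACACT near 2 summits. A motif match is a description of letters and the base composition of the windows differed, as given above.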

How the data were processed

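ChIP-seq peak lists of 3 biological replicates and of their pool were analysed in the dm6 build, and dm3 lists were not used. The deposited lists give the authors' signal value, a peak height whose scaling is not stated, and the authors' −log10 q-value for each peak, per the file columns. Per the deposited notes, the lists are peaks and background made as input for IDR, and the IDR-thresholded list was derived from them. Neither the labels nor the notes name an aligner, a peak caller or thresholds. The lists hold no read numbers, so depth is unknown, and binomial intervals cover counting error only. Per the labels, the sonicated fragments were 200 to 800 bp long.

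Members were found by matching pooled and IDR-thresholded rows on chromosome, start, end and summit, and by placing summits in the Ensembl BDGP6 annotation, with promoters (at most 500 bp from a TSS) taking precedence, then 5′ UTRs, coding exons, 3′ UTRs, introns and intergenic sequence. Sequences are from the Release 6 assembly of RefSeq, and positions are 1-based dm6. The background of each coding feature was every eligible coding base, counted in full. Tests were exact two-sided sign-flip permutations over the 3 replicates, whose spread may be partly technical. Python 3.11.15, numpy 2.4.6, pandas 2.3.3 and scipy 1.17.1 were used, and the location classes and the permutation test were checked on simulated positions. All names of the 24 gene lists were matched in the annotation, after a few were respelled or dropped.

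The members, the gene lists and the motifs were chosen with earlier results of these data known. Named genes were mam, the hosts of the 10 strongest members, the 5 genes with most members, every host of the Notch lists, up to 3 hosts per other list by signal, hosts of reproducible coding peaks and members at the limits. Genes outside this rule, such as stg and those of the printed motif sequences, were chosen after their values were seen. Alternatives were other TSS distances, list divisions, overlap rules and window sizes, and leaving out each replicate.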

Additional observations from a re-analysis of the deposited data

How the results depend on the processing

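The share of weak peaks in the coding class moved with its definition, from 10.97% to 13.0% with summits over 200 bp from a TSS, to 7.30% over 1000 bp, to 6.47% among the weak peaks above their median rank and to 9.08% where every protein-coding transcript over the summit was coding there. The 3 tested differences kept their sign in all 23 alternatives run on them. For the G+C difference that sign was largely set by the location classes, and for the coding share partly by the selection. Without each replicate in turn, the coding share of weak minus strong summits was 11.8 to 13.4 percentage points, the support difference −17.0 to −9.69, largest in size without replicate 1 and smallest without replicate 2, and the G+C difference 13.95 to 14.5. Counting only the 10000 strongest peaks of each replicate gave a support difference of −20.2, and a replicate summit within 100 bp gave −11.1. The tested differences were taken within each replicate, and with 1 group in the series there were no further groups to pair. Every such p is at the smallest value the replicates allow and says nothing about stability. Of the 45 alternatives of single values, 33 stayed within their error and 12 moved, 7 of them the X ratio within G+C deciles. Depth is unknown, the lists include background calls, and the median member had a q-value of 0.683.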

Other observations

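Codons in the 50 bp on each side of the weak coding summits were compared with those of all eligible coding sequence, over 66983 codons. Alanine made up 9.78% of residues against 7.34%, and glycine 7.62% against 6.05%, while isoleucine made up 3.78% against 4.89% and phenylalanine 2.85% against 3.50%. In the replicate lists alanine was at 8.99% ± 0.267 and isoleucine at 4.15% ± 0.189 (SD, n = 3). G+C was higher at all codon positions, at 59.8% against 55.7% in position 1, 46.7% against 41.6% in position 2 and 68.6% against 63.1% in position 3. Neighbouring codons are not independent, and these values carry no test.

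Weak summits in 3′ UTRs had a like displacement from their own sequence, with a mean G+C of 40.1% against 35.9% over all 3′ UTR bases in the class. The replicate lists gave 39.5% ± 0.778 (SD, n = 3).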
